A study of Mus musculus with 4 samples.

Results

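Oxidative phosphorylation genes encode the respiratory complexes I to IV of the mitochondrial inner membrane, the ATP synthase (complex V) and factors that help assemble them. They were taken from the array as the genes whose symbols mark them as complex I (Ndufa, Ndufb, Ndufc, Ndufs and Ndufv), complex II (Sdh), complex III (Uqcr), complex IV (Cox4 to Cox8) or complex V (Atp5). The rule found 93 of the 19938 genes measured by a probe set with a single gene symbol, namely 43 for complex I, 8 for complex II, 8 for complex III, 17 for complex IV and 17 for complex V. Of these, 82 are subunits or their isoforms and 11 are assembly factors (Ndufaf and Sdhaf). A further 4 symbols of the rule (Cox7c, Ndufb4, Ndufb4b and Ndufs5-ps) were found only on probe sets shared with other genes and were left out.

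Samples were total RNA of whole testes from male mice, 2 labelled Lhcgr KO and 2 labelled control WT. Lhcgr encodes the luteinizing hormone receptor, through which the pituitary drives testosterone synthesis in Leydig cells. Mice of both genotypes had received busulfan, an alkylating drug that depletes germ cells, at 44 mg/kg and were killed 4 weeks later, so the controls are drug-treated wild-type animals. The sources used here do not give age, strain background or the knockout allele, nor whether replicates were separate animals. P-values therefore reflect only variation among these arrays, part of which may be technical.

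Electrons from NADH enter the chain at complex I and those from succinate at complex II, pass through complex III and cytochrome c, and reduce oxygen at complex IV. The protons pumped on the way drive ATP synthase. Nuclear genes supply most subunits, and mitochondrial DNA supplies a few core ones. In the testis, Leydig cell mitochondria also host the first step of steroid synthesis, and germ cells use some subunit isoforms of their own, such as those of Cox6b2, Cox7b2 and Cox8c.

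The comparison asked how the transcripts of this machinery differ between germ cell-depleted testes with and without the receptor. The complex I subunit gene Ndufa10 and the complex IV isoform gene Cox7a1 fell in the knockout, to 62.9% and 66.0% of the wild-type level, and the other 91 genes did not pass the test (limma on log2 intensity, Benjamini-Hochberg adjusted p under 0.05 over all genes). No member was called higher, with 2 higher and 14 lower at an unadjusted p under 0.05, beside 2567 higher and 1949 lower of all 19938 genes. The share of members called lower, 2 of 93, stands beside 2.14% of all genes called lower, and the share called higher beside 0.963% of all genes. The members were thus called about as often as genes in general. Most changes were small and downward: 66 members lay below 0 and 27 above, with a median log2 fold change of -0.12 (quartiles -0.25 and 0.012) against 0.072 for all genes. Fewer cells of a type and less RNA per cell cannot be told apart in such whole-tissue samples.

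**Figure D1:**
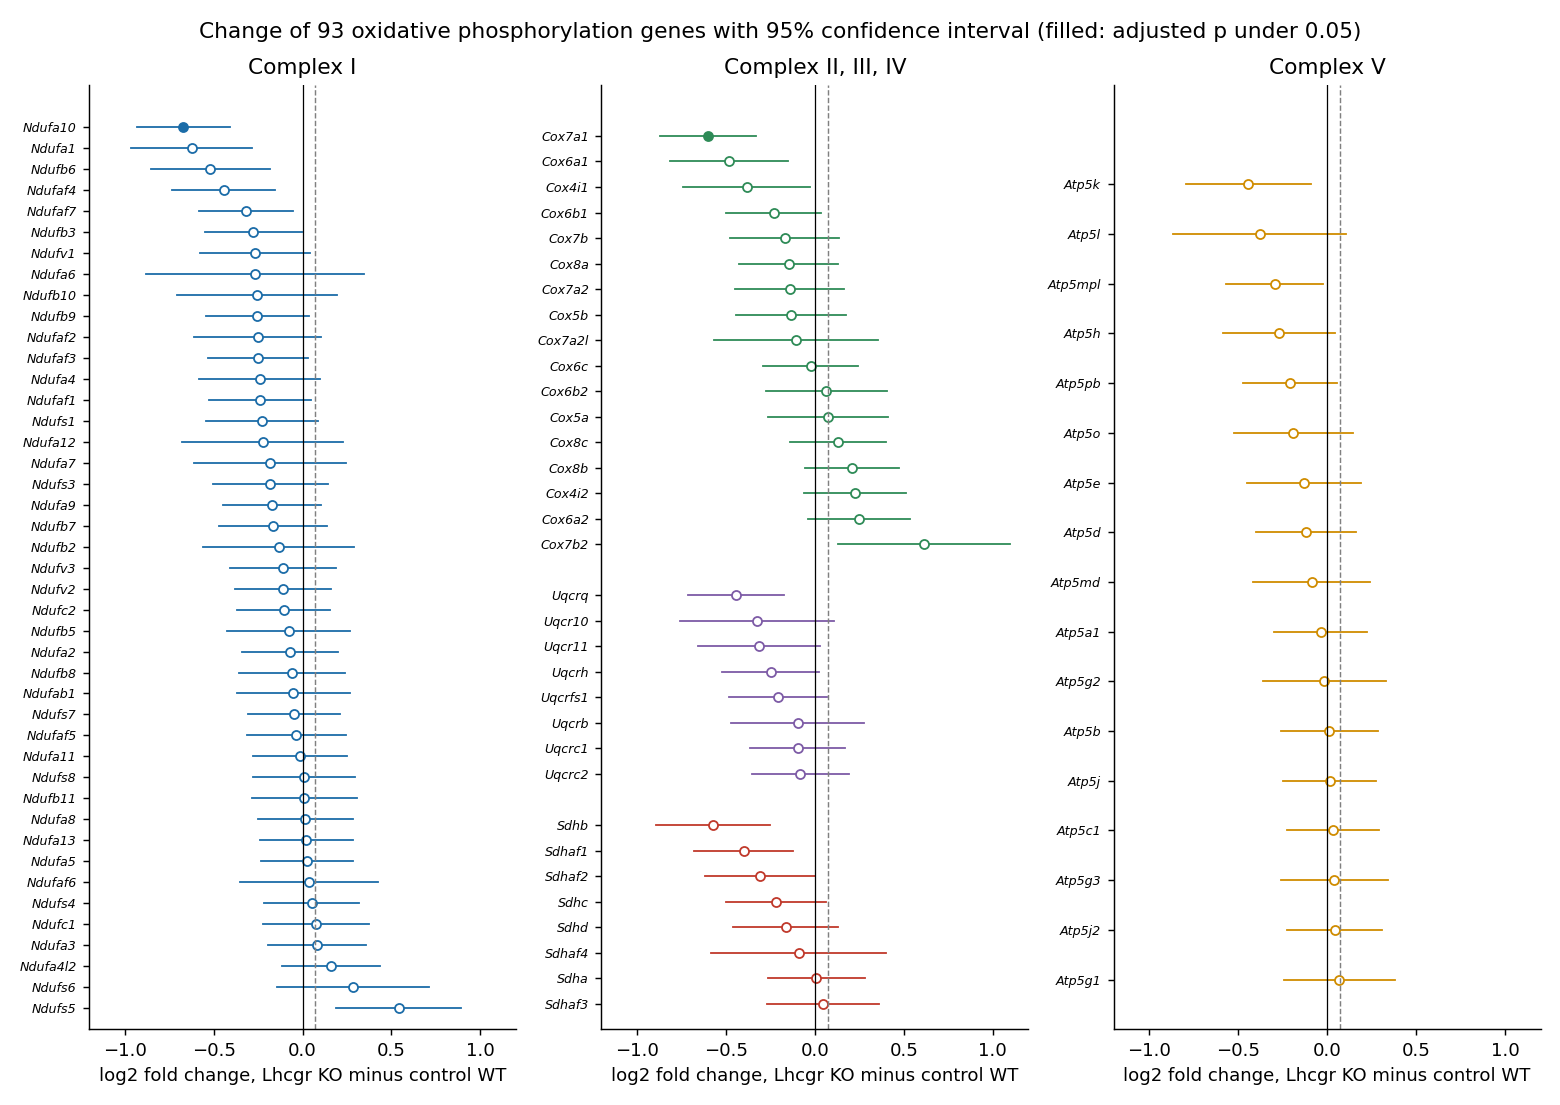
Points are the log2 fold change, Lhcgr KO minus control WT, of each of the 93 genes, grouped by complex, with the 95% confidence interval of the limma fit as a bar. Filled points (Ndufa10 and Cox7a1) passed an adjusted p under 0.05, and the dashed line marks the median of all genes at 0.072.

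The intervals set limits on what could have gone unseen. The 95% confidence interval lay wholly within a 1.5-fold change in either direction for 70 of the 93 members and within a 2-fold change for 92. The exception was Cox7b2, a weakly measured isoform whose interval reached 1.10 on the log2 scale. No interval lay wholly beyond a 1.5-fold change.

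Starting with the gene that had the lowest p, Ndufa10 (probe set 10356657) encodes an accessory subunit in the membrane part of complex I. It measured 10.96 and 10.91 log2 intensity units on the wild-type arrays and 10.28 and 10.25 on the knockout arrays. The groups did not overlap, and the gap between them was many times the gap between replicates. The means were 10.93 ± 0.03 (SD, n = 2) and 10.26 ± 0.03 (SD, n = 2), a log2 fold change of -0.67 ± 0.11 (SE, 95% confidence interval -0.93 to -0.41, limma adjusted p = 0.0301).

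Cox7a1 (probe set 10551836) encodes the heart and skeletal muscle isoform of complex IV subunit 7a. Its levels were 9.81 and 9.73 on the wild-type arrays against 9.12 and 9.22 in the knockout, again without overlap. The log2 fold change was -0.60 ± 0.11 (SE, 95% confidence interval -0.87 to -0.33, limma adjusted p = 0.0463). Quantile normalization ended this call (-0.54, adjusted p = 0.0728) but not that of Ndufa10. Neither gene passed when any of the 4 arrays was left out, with adjusted p between 0.0518 and 0.203 for Ndufa10 and between 0.0760 and 0.209 for Cox7a1.

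**Figure D2:**
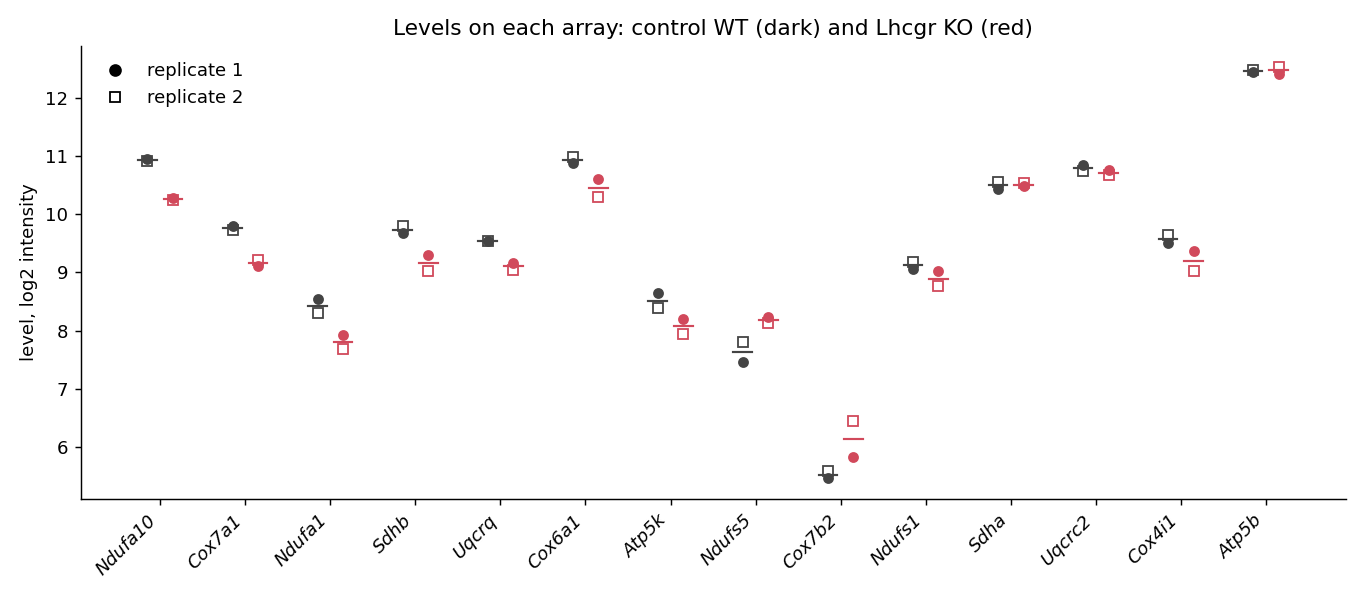
Levels in log2 intensity units on each array for 14 members, control WT in dark and Lhcgr KO in red, with circles for replicate 1, squares for replicate 2 and a line at each group mean. Ndufa10 and Cox7a1 show gaps between genotypes well above the gaps between replicates, while Sdha and Atp5b overlap.

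The start-site regions of these genes are printed because the factors that act on nuclear oxidative phosphorylation promoters are well described. The sequences, from RefSeq on GRCm38.p6, run from 250 bases before to 50 bases after each transcript start and read 5′ to 3′ along the gene. Capitals mark exact matches on either strand to the motifs searched: CGCATGCG for NRF1, CCGGAAGT for GABP, TCAAGGTCA for the estrogen-related receptors (ERR), AAGATGGC for YY1 and GGGCGG for Sp1, none of which contains another. Ndufa10 and Cox7a1 are the members that passed the test. Cox6a1 is shown as an example with an NRF1 match, and Sdhd and Atp5g3 as the members with an ERR match.
Ndufa10 (chr1:92473709-92474008, - strand): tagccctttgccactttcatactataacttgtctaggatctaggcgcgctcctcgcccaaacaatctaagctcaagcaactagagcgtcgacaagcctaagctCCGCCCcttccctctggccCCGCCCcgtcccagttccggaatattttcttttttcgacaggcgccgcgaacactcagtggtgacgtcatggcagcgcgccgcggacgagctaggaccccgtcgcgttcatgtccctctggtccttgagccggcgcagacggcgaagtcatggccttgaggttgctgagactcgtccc
Cox7a1 (chr7:30183921-30184220, + strand): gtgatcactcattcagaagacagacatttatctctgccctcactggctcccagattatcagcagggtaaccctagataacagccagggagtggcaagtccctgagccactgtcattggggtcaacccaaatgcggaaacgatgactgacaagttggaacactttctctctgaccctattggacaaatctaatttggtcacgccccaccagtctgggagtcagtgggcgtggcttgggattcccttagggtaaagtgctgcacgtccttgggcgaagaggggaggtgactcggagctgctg
Cox6a1 (chr5:115348909-115349208, - strand): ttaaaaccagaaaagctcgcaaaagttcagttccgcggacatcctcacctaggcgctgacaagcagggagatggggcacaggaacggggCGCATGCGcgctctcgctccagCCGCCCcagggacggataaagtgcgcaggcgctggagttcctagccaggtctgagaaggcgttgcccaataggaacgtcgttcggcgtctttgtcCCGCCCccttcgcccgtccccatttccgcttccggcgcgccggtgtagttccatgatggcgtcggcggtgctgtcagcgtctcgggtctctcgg
Sdhd (chr9:50603800-50604099, - strand): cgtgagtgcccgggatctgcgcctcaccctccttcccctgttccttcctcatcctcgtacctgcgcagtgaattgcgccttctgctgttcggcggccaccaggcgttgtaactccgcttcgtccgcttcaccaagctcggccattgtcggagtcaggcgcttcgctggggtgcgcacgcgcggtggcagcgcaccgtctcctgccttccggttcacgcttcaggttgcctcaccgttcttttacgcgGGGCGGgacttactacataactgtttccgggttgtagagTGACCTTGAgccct
Atp5g3 (chr2:73911277-73911576, - strand): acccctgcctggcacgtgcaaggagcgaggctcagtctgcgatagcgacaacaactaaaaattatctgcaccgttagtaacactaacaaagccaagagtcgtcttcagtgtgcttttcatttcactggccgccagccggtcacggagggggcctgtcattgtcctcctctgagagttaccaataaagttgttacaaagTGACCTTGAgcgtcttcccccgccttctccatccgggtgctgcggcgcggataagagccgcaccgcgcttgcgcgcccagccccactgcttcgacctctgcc

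The Ndufa10 window held 2 Sp1 matches, and the Cox7a1 window held none of the 5 motifs. The Cox6a1 window held the NRF1 motif and 2 Sp1 matches, the Sdhd window an ERR and an Sp1 match, and the Atp5g3 window an ERR match. RefSeq windows were found for 77 of the 93 members, 82 windows in all. NRF1 matches were present in 11 of the 82 (13.4%), against 2.69% of the 19177 windows of genes with a probe set and 1.87% of all 32851 windows. YY1 matches were present in 12.2% against 3.18% and 2.75%, and ERR matches in 2.44% against 0.297% and 0.423%. GABP matches were present in 6.1% against 5.41% and 3.89%, and Sp1 matches in 46.3% against 49.2% and 35.7%.

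The genes with an NRF1 match were Atp5g2, Atp5j, Atp5k, Atp5l, Cox6a1, Ndufa11, Ndufa8, Ndufaf4, Ndufaf5, Uqcr11 and Uqcrc1. Their log2 fold changes ran from -0.48 to 0.017 with a median of -0.097, and the 66 other members with a window had a median of -0.13. The 10 genes with a YY1 match had a median of 0.028, with 4 below 0, and ran from -0.21 for Atp5pb to 0.28 for Ndufs6. Sdhd, which anchors complex II in the membrane, changed by -0.16, and Atp5g3, a gene for the c subunit of ATP synthase, by 0.040. A match describes these letters only, and none of the members holding NRF1, GABP, ERR or YY1 matches passed the expression test.

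Complex I, the NADH dehydrogenase, had a median log2 fold change of -0.11, with 31 of 43 genes below 0, 1 called lower and none called higher. Its 6 measured core subunits, which carry the flavin and the iron-sulfur clusters or line the quinone site, had values of -0.27 to 0.0095 with a median of -0.15. Ndufs1, the largest of them, measured 9.06 and 9.18 in wild type and 9.02 and 8.77 in the knockout. The arrays of replicate 1 lay close together, and the change was -0.23 ± 0.13 (SE, adjusted p = 0.326).

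The 29 accessory subunits of complex I, which surround the core, had a median of -0.11 and held the extremes of the complex. After Ndufa10 came Ndufa1, a small membrane subunit needed for assembly, with 8.55 and 8.30 in wild type and 7.92 and 7.68 in the knockout (-0.62 ± 0.14, SE, adjusted p = 0.0776). Ndufb6, a subunit of the distal membrane arm, measured 9.67 and 9.69 against 9.32 and 8.998 (-0.52 ± 0.14, SE, adjusted p = 0.112). Both sets of knockout values lay below wild type without passing the test.

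At the other end, Ndufs5 measured 7.46 and 7.81 in wild type and 8.23 and 8.12 in the knockout, which is 0.54 ± 0.15 higher on the log2 scale (SE, adjusted p = 0.112). A symbol for a copy of this gene, Ndufs5-ps, occurs on a shared probe set, and the value is uncertain for that reason. Ndufs6, which is needed for a late step of complex I assembly, measured 8.75 and 9.26 against 9.26 and 9.32 (0.28 ± 0.18, SE, adjusted p = 0.356). The wild-type arrays differed from each other there by more than wild-type replicate 2 differed from the knockout.

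The 7 assembly factors of complex I had a median of -0.25, with 6 below 0 and 4 lower in the knockout without overlap, beside 22.4% of all genes. Ndufaf4 had the most negative value, -0.44, and Ndufaf6 the single positive value, 0.034. None passed the test.

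Complex II, succinate dehydrogenase, also serves the tricarboxylic acid cycle and has no mitochondrial DNA-encoded subunit. Its 8 genes had a median of -0.19, with 6 below 0 and none called. Sdhb, the iron-sulfur subunit, measured 9.68 and 9.80 in wild type and 9.30 and 9.03 in the knockout. The change, -0.57 ± 0.13 (SE, adjusted p = 0.0847), was the most negative of the complex and did not pass. Sdha, the flavoprotein that binds succinate, measured 10.44 and 10.56 against 10.49 and 10.54, so that the groups overlapped (0.0090 ± 0.11, SE, adjusted p = 0.967, 95% confidence interval -0.26 to 0.28). The 4 assembly factors ran from -0.40 for Sdhaf1 to 0.044 for Sdhaf3, with Sdhaf2, which helps attach the flavin to Sdha, at -0.31.

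Complex III, the cytochrome bc1 complex, had a median of -0.23, and all 8 genes were below 0. All 8 were also below 0 after quantile normalization and after centring, and 7 of 8 without wild-type replicate 2. The median was the lowest of the 5 complexes with all arrays, but without knockout replicate 2 it was -0.14, above the -0.21 of complex II. None was called. Uqcrq, a small subunit near cytochrome b, measured 9.55 on both wild-type arrays and 9.16 and 9.04 in the knockout (-0.44 ± 0.11, SE, adjusted p = 0.1003). Uqcr10 and Uqcr11, other small subunits, had values of -0.33 and -0.31, the former with overlapping groups. Uqcrfs1, the Rieske iron-sulfur protein, changed by -0.21, and Uqcrc2, a core protein, by -0.082 ± 0.11 (SE, adjusted p = 0.669), with 10.86 and 10.74 in wild type against 10.76 and 10.68.

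Complex IV, cytochrome c oxidase, had a median of -0.11, with 10 of 17 genes below 0. Its 10 genes outside the tissue-restricted isoforms, counting Cox7a2l, had a median of -0.14 with 9 below 0. Cox5a was above 0 at 0.073. Cox6a1 measured 10.89 and 10.99 in wild type and 10.61 and 10.30 in the knockout (-0.48 ± 0.14, SE, adjusted p = 0.125). Cox4i1, the common form of the largest nuclear-encoded subunit, measured 9.50 and 9.65 against 9.36 and 9.02 (-0.38 ± 0.15, SE, adjusted p = 0.202). Cox6c changed by -0.023 (95% confidence interval -0.29 to 0.24) and by 0.035 after quantile normalization.

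The isoforms are of interest because they mark other tissues or germ cells. Cox6b2, Cox7b2 and Cox8c are testis forms, Cox6a2, Cox7a1 and Cox8b heart and muscle forms, and Cox4i2 and Ndufa4l2 are known for their response to low oxygen. Ndufa4l2 and its paralog Ndufa4 carry complex I symbols, although the Ndufa4 protein is now regarded as a part of complex IV. Apart from Cox7a1, these 8 genes had values above 0, from 0.064 for Cox6b2 to 0.61 for Cox7b2, and none of the 7 passed the test. Without overlap, 6 of the 8 lay higher in the knockout, beside 36.8% of all genes.

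Cox4i2 measured 8.44 and 8.39 in wild type and 8.55 and 8.73 in the knockout (0.23 ± 0.12, SE, adjusted p = 0.294). Cox7b2 measured 5.46 and 5.58 against 5.83 and 6.44, with a wide gap between the knockout arrays (0.61 ± 0.20, SE, adjusted p = 0.159). Cox6b2 measured 7.39 and 7.67 against 7.50 and 7.69, with overlapping groups. In 7 of the 8 pairs the isoform had the higher log2 fold change than its common paralog, by 0.28 for Cox8c to 0.78 for Cox7b2, and Cox7a1 lay 0.46 below Cox7a2. These differences between paralogs were not tested.

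Signal strength moves with this pattern. Among the weakest 25% of all genes by mean level the median log2 fold change was 0.17 and in the next 25% it was 0.14, against -0.028 in the next and -0.050 in the strongest 25%. Of the isoforms, Cox7b2 and Ndufa4l2 lay in the weakest 25% and Cox6a2, Cox6b2, Cox8b and Cox8c in the 25% above it. Among all genes of those groups 51.4% and 46.9% were higher in the knockout without overlap. After quantile normalization 6 of the 8 isoforms remained above 0, with Cox8c at 0.011, Ndufa4l2 at 0.025 and Cox6b2 at -0.0042. The part of the general shift of weak genes in these values was not tested.

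**Figure D3:**
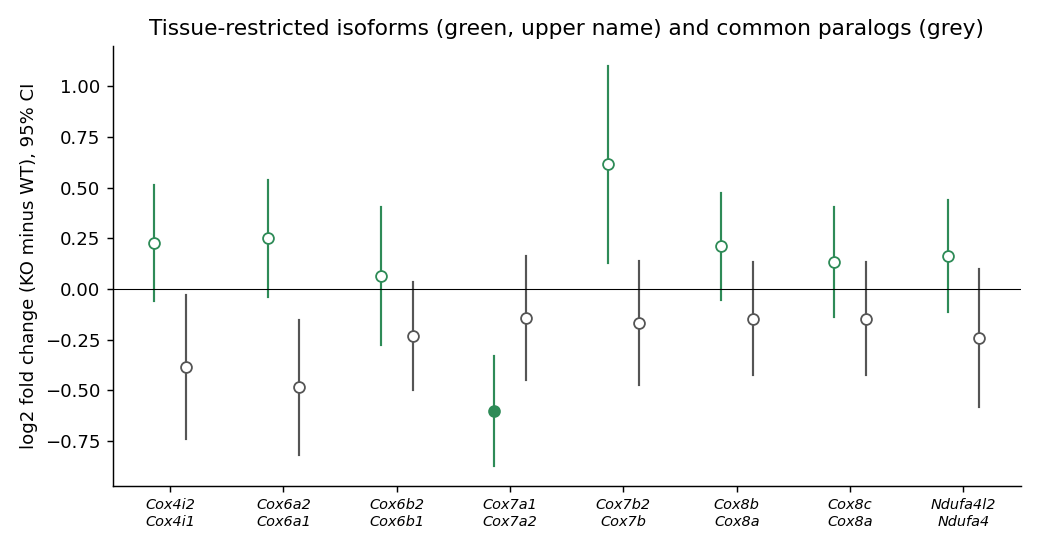
Log2 fold change, Lhcgr KO minus control WT, with 95% confidence interval for each tissue-restricted isoform (green, upper name) and its common paralog (grey, lower name). Cox7a1, the filled point at -0.60, is the isoform below its paralog, and the other 7 lie above theirs.

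Complex V, ATP synthase, had a median of -0.087, with 11 of 17 genes below 0 and none called. The F1 head and central stalk, where ATP is made, ran from -0.13 to 0.031 over 5 genes. Atp5b, the catalytic beta subunit, measured 12.44 and 12.49 in wild type and 12.42 and 12.54 in the knockout, a change of 0.012 ± 0.11 (SE, adjusted p = 0.953, 95% confidence interval -0.26 to 0.29). The 3 genes of the c subunit, which forms the rotor ring, ran from -0.016 to 0.068.

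The 4 subunits of the peripheral stalk, which holds the head in place, had a median of -0.20 and ran from -0.27 for Atp5h to 0.014 for Atp5j. The 5 small membrane subunits of the Fo part, several of which link ATP synthase dimers, had a median of -0.29 (Atp5k, Atp5l, Atp5mpl, Atp5md and Atp5j2), with Atp5md at -0.087 and Atp5j2 at 0.042. Atp5k, subunit e, measured 8.64 and 8.39 in wild type and 8.20 and 7.94 in the knockout (-0.44 ± 0.15, SE, adjusted p = 0.160). Atp5l, subunit g, measured 9.31 and 9.28 against 9.23 and 8.60, so that the change of -0.38 ± 0.20 (SE, adjusted p = 0.299) rests on knockout replicate 2. These groups of subunits were named for their place in the enzyme, and differences between them were not tested.

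Complexes could be compared only as described values. Their medians ran from -0.23 for complex III over -0.19 (II), -0.11 (I) and -0.11 (IV) to -0.087 (V). Without knockout replicate 2 they were -0.054 (I), -0.21 (II), -0.14 (III), -0.051 (IV) and -0.051 (V), and without knockout replicate 1 -0.20, -0.27, -0.29, -0.11 and -0.16. Without wild-type replicate 2 the median of complex IV was -0.029. Differences between single arrays show how far replicates allow an order. Between knockout replicate 1 and the wild-type arrays the median over all 93 members was -0.070 and -0.047, and between knockout replicate 2 and the wild-type arrays -0.19 and -0.20. The knockout arrays differed from each other by 0.066 and the wild-type arrays by 0.033. In complexes I, IV and V at least 1 knockout to wild-type median was no larger than a difference within a genotype. In complexes II and III the 4 cross-genotype medians, -0.15 to -0.31, all exceeded the within-genotype ones, whose sizes ran up to 0.12.

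**Figure D4:**
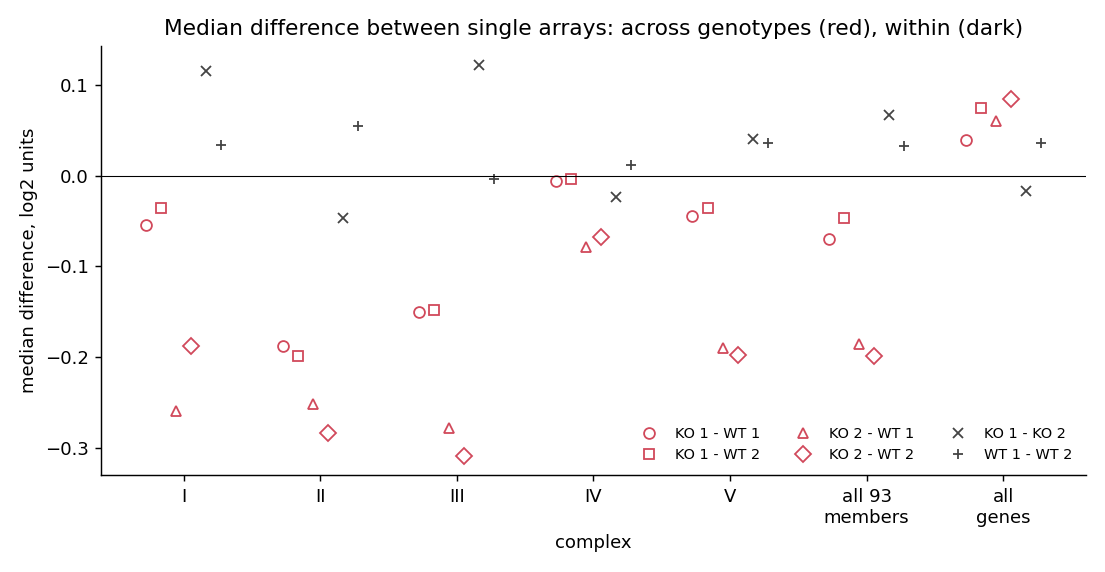
Median difference in log2 units between pairs of single arrays, for the genes of each complex, for all 93 members and for all genes, with pairs across genotypes in red and pairs within a genotype in dark. All red points of the 5 complexes lie below 0, those with knockout replicate 2 lower than those with replicate 1, while those of all genes lie above 0.

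Knockout replicate 2 was the lowest of the 4 arrays for 52 of the 93 members (55.9%), against 22.9% of all genes. The same array was the lowest for 35 of 45 genes picked by cytosolic ribosomal protein symbols (Rpl and Rps). Their summed intensity was 95572 there and 112202 to 117475 on the other arrays. The part of this array in the members' median was not tested by itself. Leaving out knockout replicate 2 gave a median of -0.064, and leaving out replicate 1 gave -0.20.

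The groups did not overlap, with both knockout values lower, for 41 of the 93 members, against 22.4% of all genes, and 9 members were higher without overlap, against 36.8% of all genes. Signal strength bears on this share too, since 58 members lie in the strongest 25% of all genes. There 43.1% of the members and 36.0% of all genes were lower without overlap, and the median log2 fold changes were -0.10 and -0.050. In the 25% below it the medians were -0.23 for 22 members and -0.028 for all genes. The number below 0 was 63 after quantile normalization and 72 after centring each array on its median.

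**Figure D5:**
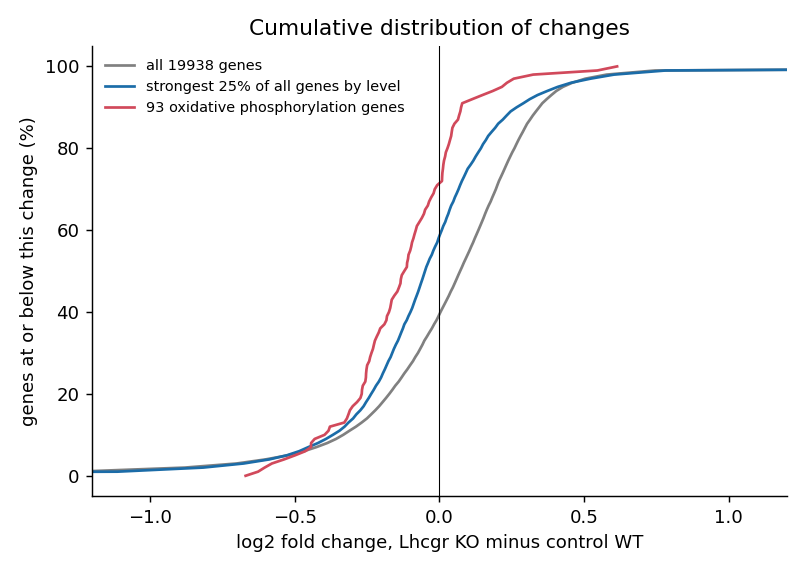
Cumulative percentage of genes at or below each log2 fold change, Lhcgr KO minus control WT, for all 19938 genes, the strongest 25% by level and the 93 members. The members' curve passes 50% at -0.12, the strongest 25% at -0.050 and all genes at 0.072.

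Of the members, 18 had several probe sets. Their changes differed within a gene by a median of 0.063 and at most 0.22 on the log2 scale, and in 2 genes a weaker probe set had the opposite sign. For Atp5l, all 6 probe sets were below 0, from -0.44 to -0.35, and for Atp5h all 3, from -0.32 to -0.27. Many of these short transcripts have processed copies in the genome, and such probe sets may share signal.

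Genes of the pathway outside the symbol rule were measured too. Cycs, somatic cytochrome c, changed by 0.17 (adjusted p = 0.406) and Cyc1, the cytochrome c1 subunit of complex III, by -0.045. The probe sets annotated to the mitochondrial DNA genes COX2 and ND3 changed by 0.072 and 0.025, with adjusted p = 0.700 and 0.907, and copies of mitochondrial DNA in the nucleus make them uncertain. None of 9 further complex I, 6 complex III, 19 complex IV and 4 complex V assembly factors passed the test, with medians of -0.090, -0.013, -0.15 and -0.18. Foxred1, a complex I assembly factor, changed by -0.34 on the log2 scale (adjusted p = 0.158), and Sco1, which delivers copper to complex IV, by -0.29 (adjusted p = 0.212).

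Neighbouring groups had medians between -0.13 and -0.10. None of 17 tricarboxylic acid cycle genes passed (median -0.13), with Pdhx, a pyruvate dehydrogenase component, at -0.41 (adjusted p = 0.113). Of 77 mitochondrial ribosomal protein genes Mrps6 alone was called, with a change of -0.60 ± 0.12 (SE, adjusted p = 0.0479), and the median was -0.13. Mrps6 was not called after quantile normalization (adjusted p = 0.0581) or without any single array. None of 31 import and carrier genes passed (median -0.10), nor did any of 45 genes with cytosolic ribosomal protein symbols (median -0.10). The symbol rule for the latter also takes in related genes such as Rps19bp1 and Rps23rg1.

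Among 21 regulators of mitochondrial biogenesis, Ppargc1a rose. It encodes PGC-1alpha, a coactivator that works with NRF1 and the estrogen-related receptors on respiratory genes. Its level was 7.69 and 7.62 log2 intensity units in wild type and 8.61 and 8.87 in the knockout, without overlap. The log2 fold change was 1.09 ± 0.13 (SE, limma adjusted p = 0.0115), larger in size than that of any oxidative phosphorylation member. It did not pass without knockout replicate 1 (1.21, adjusted p = 0.0847) or replicate 2 (0.96, adjusted p = 0.128). The other 20 regulators did not pass, and the list median was -0.057.

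Summed marker levels of several cell types moved with genotype, and these are RNA levels, not cell counts. Of 8 Leydig cell markers 6 were called lower, and their summed intensity was 24210 and 13329 in wild type against 3808 and 3040 in the knockout. Of 8 macrophage markers 4 were called lower, with sums of 5594 and 6902 against 2892 and 3265. Sertoli cell markers summed to between 31078 and 33587 on all arrays, with 1 of 9 called higher. Both knockout values lay above both wild-type values for 6 of these 9 markers and below them for 1. The list's median log2 fold change was 0.16. By mean level these markers lie in the strongest level group used above. There 22.4% of all genes were higher without overlap, and the median was -0.050. No marker is at 0, as the scale starts at 16. The part of Leydig cells, macrophages and Sertoli cells in the members' changes was not tested.

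Of 7 markers of striated muscle, the tissue Cox7a1 is best known from, none was called, and 5 were higher in the knockout without overlap and none lower, beside 36.8% and 22.4% of all genes. Their sums were 1236 and 1181 in wild type and 1313 and 1409 in the knockout. Most of these muscle markers are weak, and weak genes were higher without overlap more often than genes in general. The shares were 51.4% of all genes in the weakest level group used above and 46.9% in the next. The median log2 fold changes of those groups were 0.17 and 0.14, beside 0.19 for the muscle list. The part of the general shift of weak genes in the muscle and fat marker values was not tested. None of 3 brown fat and 4 adipocyte markers was called, with 2 and 3 higher without overlap. Brown fat sums were 521 and 499 in wild type against 889 and 680, and adipocyte sums 604 and 562 against 773 and 862. The brown fat sums rest mostly on Cidea (0.76, adjusted p = 0.111), while Dio2 changed by 0.29 and Ucp1 by 0.063 (adjusted p = 0.754). Cidea itself was not weak, with 8.46 and 8.37 in wild type and 9.48 and 8.86 in the knockout. The 2 weaker level groups ended at a mean of 7.82. Of 5 endothelial markers Sox18 was called higher (1.02 on the log2 scale, adjusted p = 0.0181). The endothelial sums were 1702 and 1639 in wild type against 2187 and 2225. Without overlap, 2 of these markers were higher and 1, Kdr, was lower (-0.81, adjusted p = 0.128), and Pecam1 changed by -0.057. None of 6 peritubular myoid cell markers was called, with sums of 5930 and 5868 against 7744 and 6237. Acta2, the strongest of them, changed by 0.32. The list median was -0.28, with 3 lower and 2 higher without overlap, so the sums and the median went in opposite directions. The part of these cell types in the values of Ppargc1a, Cox7a1 and Cox8b was not tested. Of germ cell markers, 1 of 9 for spermatocytes (Hspa2) and 1 of 8 for undifferentiated spermatogonia (Etv5) were called, both lower, and none of 8 for spermatids. The medians of these 3 lists were above 0, at 0.090, 0.071 and 0.14. Without overlap, 1 spermatocyte marker was lower and 2 higher, and 3 spermatogonial markers were lower and 2 higher. Spermatogonial sums were 2655 and 2479 in wild type and 1868 and 1702 in the knockout. Spermatocyte sums were 1499 and 1208 against 1159 and 1158. For both of these lists the sums were lower in the knockout although the median was above 0. Spermatid sums were 1569 and 1001 in wild type and 1047 and 1176 in the knockout. Of 7 epididymis and rete testis markers Epcam was called lower (-2.06, limma adjusted p = 0.0484). It measured 7.73 and 9.12 in wild type against 6.37 and 6.37 in the knockout. Wild-type replicate 2 also carried epididymal signal, with marker sums of 5039 there and 576 to 652 elsewhere. Without that array the members' median was -0.14.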

How the data were processed

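RNA from 2 Lhcgr KO and 2 control WT testes was read on Affymetrix whole-transcript arrays (1 colour, biotin), per the labels' protocols. The values deposited by the authors are linear intensities, 1 per probe set and array, for 28856 probe sets. The submitters' processing notes name mm9. How background was corrected and probes were summarized and normalized is not stated in those sources. Array medians were 198 to 215 and the minimum was 16 on each array, a floor that may compress changes of weak genes. No detection calls were used. The number of arrays limits precision.

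The 21789 probe sets with 1 symbol in the platform annotation stand for 19938 genes. The probe set with the highest mean stood for a gene. Log2 values were compared with limma 3.58.1 in R 4.3.3 (lmFit and eBayes, no covariates, prior of 4.65 degrees of freedom), two-sided, with Benjamini-Hochberg adjustment over all genes at 0.05. The script was tested on simulated data. Genotypes rest on the labels, as Lhcgr itself is not analysed here. All 93 members matched RefSeq genes on GRCm38.p6 by Entrez number.

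Members and lists were chosen with earlier results of these data known. Named members were those past the threshold, up to 3 extremes in each direction per complex, a core gene per complex, the isoforms with their paralogs, and the 5 with the highest means. In other lists, up to 3 called genes or the 2 with the lowest p were named. Some members of each subunit group were named beyond that rule, after their values were seen. Alternatives were another normalization, filter, probe set rule, prior, offset, threshold or variance, a block and leaving out each array.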

Additional observations from a re-analysis of the deposited data

How the results depend on the processing

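With 93 members, 2 were called lower and 0 higher. Added 32 before log2, centring, either filter on weak genes, averaged probe sets and the trend or robust prior also gave 2 lower, and no setting gave a higher one. Quantile normalization gave 1 lower, Ndufa10, and medians of -0.052 for complex IV and -0.037 for complex V. A threshold of 0.1 gave 4 lower, with Ndufa1 and Sdhb added. Ordinary pooled variance gave 0 lower, with 9 lower and 1 higher at an unadjusted p under 0.05, and called 0 of all genes. Leaving out each array gave 0 lower in each case, with 7 to 22 lower at an unadjusted p under 0.05. Over these, the members' median ran from -0.20 to -0.064, and those of the complexes from -0.20 to -0.054 (I), -0.27 to -0.16 (II), -0.29 to -0.14 (III), -0.11 to -0.029 (IV) and -0.16 to -0.051 (V). The lone remaining array of a genotype was assumed to vary like the others. Without knockout replicate 1 or 2, 16 and 21 of all genes were called lower, against 426 with all arrays, 726 without wild-type replicate 1 and 451 without wild-type replicate 2. The replicate number as a block gave 1 lower, Ndufa10, and ended the calls of Cox7a1 (adjusted p = 0.0741) and Mrps6 (adjusted p = 0.0678). Same-numbered arrays were not taken as pairs (correlation of deviations 0.021 over all genes and 0.28 over the members, with 2 pairs, and no label ties the numbers to shared animals or days). No direction of a called gene reversed. Weak signals near the scale's floor limit the isoforms, above all Cox7b2. Causes of these shifts were not tested.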
